A study of Mus musculus with 12 samples.

Results

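The Hoxb genes are 1 of the 4 clusters of Hox genes in the mouse and lie side by side on chromosome 11. The set held 10 genes, Hoxb1 to Hoxb9 and Hoxb13, taken as every array probe whose RefSeq accession belongs to one of these symbols. That gave 11 of 55681 probes, 1 per gene except for Hoxb3, which had 2. A gene was tested where a probe of it was well above background throughout 1 or more of the groups of 3 arrays. That left 9 of the 10 Hoxb genes among 15445 tested genes of 20660 named. Hoxb1 did not pass.

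The RNA of mouse embryonic fibroblasts, cultured from the connective tissue of embryos, was read on 12 single-colour Agilent arrays. The cells were GADD34ΔC/ΔC, here called ΔC, or wild type. GADD34, the product of Ppp1r15a, directs protein phosphatase 1 against phosphorylated eIF2α, a factor that starts translation. Each genotype was harvested after 6 h of lipofection with 2.5 µg/ml of high molecular weight poly(I:C), a double-stranded RNA made in vitro, or was left untreated. The groups were ΔC with poly(I:C), ΔC untreated, wild type with poly(I:C) and wild type untreated, with 3 arrays each from experiments called independent. All cells grew in DMEM with heat-inactivated serum and beta-mercaptoethanol, and the untreated groups are not labelled as having had the lipid reagent. The labels give neither the number of embryos or cell lines behind each genotype, nor whether the 2 genotypes came from littermates, nor the part of the gene that is deleted. Genotype and the origin of the cells therefore cannot be told apart, and p-values measure the spread between repeat experiments on these cells.

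Hox genes encode transcription factors that bind DNA through a homeodomain, usually together with TALE proteins such as PBX and MEIS. Their order along the cluster matches the order in which they are switched on from head to tail in the embryo, with Hoxb1 at the anterior end and Hoxb13 at the posterior end. Fibroblasts keep in culture a Hox pattern that reflects the body site they came from, and Polycomb proteins hold unused Hox genes silent.

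The RefSeq promoter table (GRCm38.p6) held only 3 of the 10 genes, Hoxb1, Hoxb4 and Hoxb8, and their sequences are printed because they were the ones available. Each window runs from 250 bases before to 50 after the start of the gene, on the plus strand. They are Hoxb1 at chr11:96365508-96365807, Hoxb4 at chr11:96318017-96318316 and Hoxb8 at chr11:96281655-96281954. Capitals mark 3 motifs, searched on both strands: TGATNNAT, a form bound by HOX and PBX proteins together, AGGTCA, the half-site of nuclear receptors such as the retinoic acid receptors, and TTTATG, a core of sites bound by CDX proteins.
Hoxb1: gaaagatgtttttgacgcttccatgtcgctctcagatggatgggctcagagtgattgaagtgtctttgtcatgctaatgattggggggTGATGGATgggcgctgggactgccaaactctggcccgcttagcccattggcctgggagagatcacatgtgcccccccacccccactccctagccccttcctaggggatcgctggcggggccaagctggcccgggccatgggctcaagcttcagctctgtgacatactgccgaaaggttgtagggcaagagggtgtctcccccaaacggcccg
Hoxb4: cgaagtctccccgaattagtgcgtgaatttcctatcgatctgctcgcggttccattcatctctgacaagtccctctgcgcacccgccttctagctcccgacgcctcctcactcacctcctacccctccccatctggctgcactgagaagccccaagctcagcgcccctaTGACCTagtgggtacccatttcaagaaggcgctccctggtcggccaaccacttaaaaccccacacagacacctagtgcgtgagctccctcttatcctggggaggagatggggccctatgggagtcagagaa
Hoxb8: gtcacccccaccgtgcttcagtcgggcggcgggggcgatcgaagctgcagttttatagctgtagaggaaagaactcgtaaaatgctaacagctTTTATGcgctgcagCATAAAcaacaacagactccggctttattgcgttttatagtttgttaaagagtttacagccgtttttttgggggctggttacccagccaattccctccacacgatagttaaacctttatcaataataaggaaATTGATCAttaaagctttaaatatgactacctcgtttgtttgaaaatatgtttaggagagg
The Hoxb1 window held TGATNNAT once, at bases 89 to 96. The Hoxb4 window held AGGTCA once, on the minus strand at bases 170 to 175. The Hoxb8 window held TTTATG at bases 94 to 99 and, on the minus strand, at bases 108 to 113, and it held TGATNNAT on the minus strand at bases 240 to 247. No 2 of these matches overlapped. Over all 32851 promoters of the table, 8.8% held TGATNNAT, 16.3% AGGTCA and 11.9% TTTATG. The windows held 10, 14 and 13 CG dinucleotides for Hoxb1, Hoxb4 and Hoxb8, against a median of 7 over all promoters, with a GC content of 59.3%, 58.0% and 42.3%. The arrays measured no binding, so that these matches describe the letters only.

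Between 60.4 and 67.3% of all probes were well above background on each array. Across genes, arrays of the same group correlated at 0.98 to 0.996, and those of different groups at 0.911 to 0.99. Ppp1r15a, the targeted gene, had normalised log2 levels of -8.14 to -4.12 in poly(I:C)-treated ΔC cells and -8.30 to -5.75 in untreated ΔC cells, against 5.79 to 5.83 in treated and 2.62 to 3.36 in untreated wild-type cells. Its probe was well above background on 1 of 3 treated and 0 of 3 untreated ΔC arrays, and on all 3 wild-type arrays in each treatment. The probe's place relative to the deletion is not given. A normalised log2 level is the log2 processed intensity minus the 75th percentile of the same array, so that 0 is the brightness that 75% of the probes stayed below. Of 12 fibroblast markers, 12 were well above background on all 3 arrays in every group except wild type with poly(I:C), where 11 were.

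The first question was whether Hoxb genes stood at another level in ΔC cells. All 9 tested Hoxb genes were higher in ΔC than in wild-type cells, both with poly(I:C) and without it (limma, adjusted p of at most 0.000294 with poly(I:C) and of at most 0.00047 without). Hoxb2, Hoxb4, Hoxb8, Hoxb9 and Hoxb13 entered the test only through the ΔC groups, so that the filter itself favoured this direction for them. Hoxb3, Hoxb5, Hoxb6 and Hoxb7 passed the filter in wild-type cells as well. Over all tested genes, 11.9% were called higher with poly(I:C) and 10.9% without. In either direction 20.9% were called with poly(I:C) and 21.2% without. The median log2 fold change of the 9 genes was 7.51 with poly(I:C) and 7.35 without, against 0.01 and -0.06 over all genes tested. With every level below the detection floor of its array raised to it, the medians of the 9 were 7.14 and 6.82. The sizes also depended on the background correction. With normexp background correction and quantile normalization, the 9 values ran from 1.34 (Hoxb3) to 6.92 (Hoxb13) with poly(I:C). Without poly(I:C) they ran from 1.46 (Hoxb3) to 7.32 (Hoxb13). For each of the 9, the 3 ΔC arrays lay above the 3 wild-type arrays without overlap in each treatment. Groups of 3 that did not overlap, with ΔC higher, were also found for 21.7% of all tested genes with poly(I:C) and for 17.6% without. In bulk RNA such as this, fewer expressing cells and less RNA per cell cannot be told apart.

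**Figure D1:**
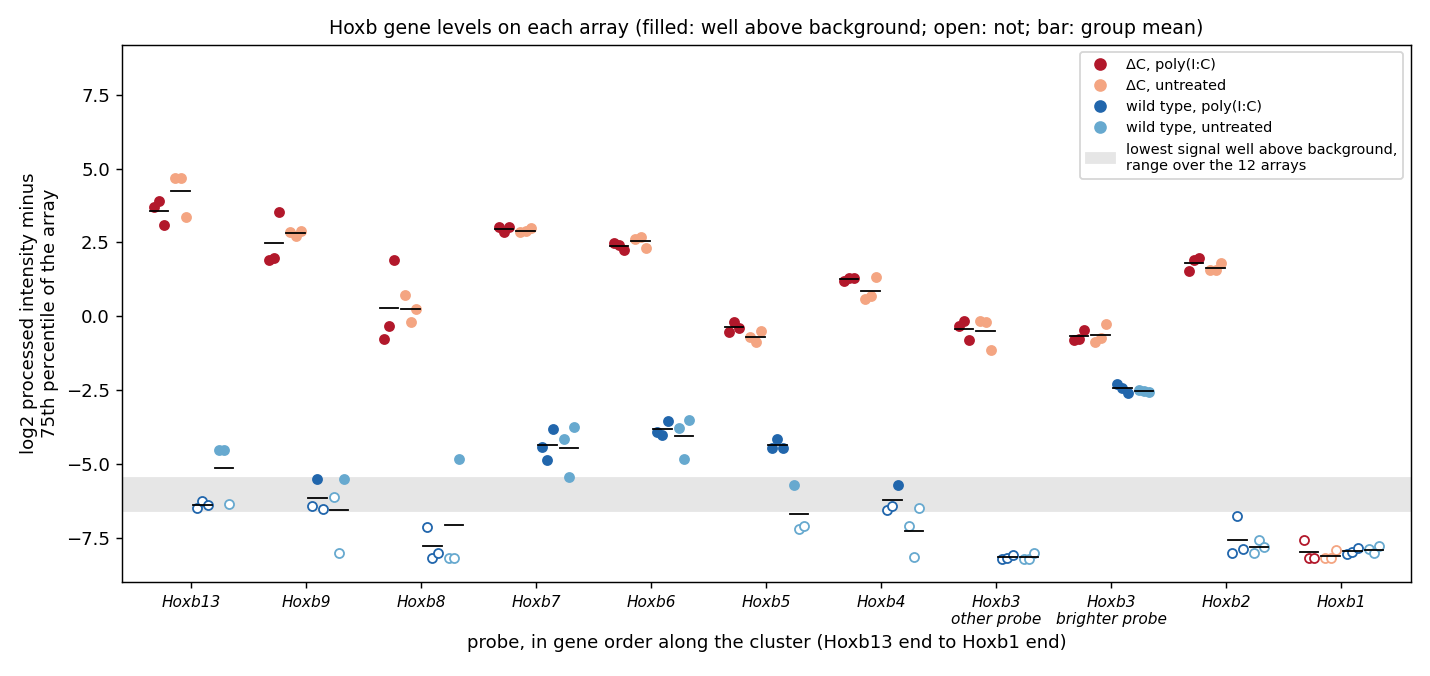
Normalised log2 level (vertical axis) of the 11 Hoxb probes (horizontal axis, in gene order along the cluster) on each of the 12 arrays, with a bar at the mean of each group of 3. Filled points were well above background, and the grey band spans the lowest signal well above background over the 12 arrays, at -6.60 to -5.48. In each treatment, all probes except that of Hoxb1 separate the 3 ΔC arrays from the 3 wild-type arrays.

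The anterior genes Hoxb1 to Hoxb4 pattern the hindbrain and the neck region of the embryo. Hoxb1, which sets the identity of the hindbrain segment that gives rise to the facial motor neurons, was well above background on 0 of 12 arrays. Its processed intensity, before normalisation, was 2.73 to 4.61 on the ΔC arrays and 2.54 to 3.2 on the wild-type arrays, so that only an upper bound can be set in either genotype.

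Hoxb2, a direct target of Hoxb1 in the hindbrain, had log2 levels of 1.53, 1.90 and 1.99 on the ΔC poly(I:C) arrays and of 1.58, 1.56 and 1.81 on the untreated ΔC arrays. The wild-type arrays read -8.03, -6.78 and -7.87 with poly(I:C) and -8.01, -7.58 and -7.81 without. The gene was well above background on all 6 ΔC arrays and on 0 of 6 wild-type arrays. It was at least 250.3-fold higher in ΔC cells with poly(I:C) (limma adjusted p = 1.01e-07) and at least 194.5-fold higher without (adjusted p = 9.21e-08). These bounds set the mean ΔC level against the lowest signal that was well above background on each wild-type array. The bounds hold for the processed intensities only. The p-values printed beside bounds, here and below, belong to the fitted differences. With normexp background correction and quantile normalization, the log2 fold change of Hoxb2 was 5.23 with poly(I:C) and 5.13 without. With levels raised to the detection floor it was 7.97 and 7.60. Normexp correction also gave log2 values under the bounds below for untreated Hoxb4 (4.53) and for treated Hoxb8 and Hoxb13 (4.10 and 6.92).

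Hoxb3, which acts in the hindbrain and the pharyngeal arches, was the only member with 2 probes, and they differed in the size of the change. The probe that stood for the gene, the brighter by its mean over the 12 arrays but not over the ΔC arrays alone, read -0.80, -0.77 and -0.46 in ΔC cells with poly(I:C) and -0.86, -0.75 and -0.27 without, against -2.29, -2.43 and -2.60 in wild-type cells with poly(I:C) and -2.51, -2.53 and -2.56 without. It was well above background on all 12 arrays. The log2 fold change was 1.77 ± 0.17 with poly(I:C) (SE from the model, n = 3 per group, limma adjusted p = 9.16e-05) and 1.91 ± 0.17 without (adjusted p = 4.64e-05), or 3.4-fold and 3.76-fold. The other probe read -0.34, -0.15 and -0.81 in ΔC cells with poly(I:C) and -0.17, -0.21 and -1.14 without. Its 6 wild-type values lay between -8.23 and -8.03, and 0 of them were well above background. By this probe Hoxb3 was at least 53.09-fold higher in ΔC cells with poly(I:C) and at least 43.58-fold higher without (limma over 35200 probes, adjusted p = 1.25e-07 and 1.17e-07). The 2 probes thus agreed in direction. The files do not give their positions in the transcript, and the source of the wild-type signal at the probe that stood for the gene was not tested.

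Hoxb4, known for expanding blood stem cells when it is overexpressed, read 1.20, 1.31 and 1.31 in ΔC cells with poly(I:C) and 0.57, 0.69 and 1.33 without. Wild-type cells read -6.55, -6.43 and -5.72 with poly(I:C), of which only the last was well above background, and -7.11, -8.16 and -6.50 without. Hoxb4 was at least 112.6-fold higher in untreated ΔC cells (limma adjusted p = 1.08e-06). With poly(I:C), its fitted log2 fold change was 7.51 ± 0.38 (SE, n = 3 per group, limma adjusted p = 2.51e-06), a size that rests partly on background readings in wild-type cells.

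The central genes Hoxb5 to Hoxb8 act mainly in the trunk. Hoxb5, which helps to place the shoulder and marks long-lived blood stem cells in mice, read -0.53, -0.19 and -0.38 in ΔC cells with poly(I:C) and -0.69, -0.86 and -0.51 without. Wild-type cells read -4.45, -4.16 and -4.45 with poly(I:C) and -5.72, -7.22 and -7.10 without. All 3 treated wild-type arrays were well above background, but only 1 of the 3 untreated ones was. The log2 fold change between genotypes was 3.99 ± 0.33 with poly(I:C) (limma adjusted p = 4.46e-05), or 15.9-fold, and 5.99 ± 0.33 without (adjusted p = 2.82e-06). The size without poly(I:C) rests partly on background readings and was 5.18 with levels raised to the detection floor. With normexp background correction and quantile normalization, the genotype differences were 2.81 with poly(I:C) and 3.13 without.

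Hoxb6, expressed in the lateral plate mesoderm of the embryo, was well above background on all 12 arrays. It read 2.49, 2.40 and 2.23 in ΔC cells with poly(I:C) and 2.62, 2.67 and 2.31 without, against -3.92, -4.02 and -3.55 in wild-type cells with poly(I:C) and -3.79, -4.83 and -3.50 without. The difference was 73.7-fold with poly(I:C) (log2 fold change 6.20 ± 0.29, limma adjusted p = 1.45e-06) and 95.3-fold without (6.57 ± 0.29, adjusted p = 7.67e-07). With normexp background correction and quantile normalization, the log2 fold change of Hoxb6 was smaller, 5.05 with poly(I:C) and 5.28 without.

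Hoxb7, known for its activity in the duct that forms the collecting system of the kidney, was also well above background on all 12 arrays. Its levels were 3.02, 2.84 and 3.02 in ΔC cells with poly(I:C) and 2.84, 2.88 and 2.99 without. In wild-type cells they were -4.43, -4.86 and -3.81 with poly(I:C) and -4.16, -5.43 and -3.76 without. The 6 ΔC arrays spanned less than the 6 wild-type arrays, and the gap between the lowest ΔC and the highest wild-type array was 6.60 on the log2 scale. The difference was 161-fold with poly(I:C) (log2 fold change 7.33 ± 0.38, limma adjusted p = 2.6e-06) and 163-fold without (7.35 ± 0.38, adjusted p = 2.12e-06). With normexp background correction and quantile normalization, the log2 fold change of Hoxb7 was smaller, 5.80 with poly(I:C) and 5.72 without.

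Hoxb8, which blocks the maturation of myeloid progenitors when it is overexpressed, had the largest SE of the 9 genes, 0.91. It read -0.78, -0.32 and 1.92 in ΔC cells with poly(I:C) and 0.71, -0.20 and 0.24 without. Wild-type cells read -7.13, -8.18 and -8.00 with poly(I:C), none of them well above background, and -8.17, -8.19 and -4.84 without, where only the last was. Hoxb8 was at least 86.39-fold higher in ΔC cells with poly(I:C) (limma adjusted p = 0.000294). Without poly(I:C) its fitted log2 fold change was 7.31 ± 0.91 (adjusted p = 0.00047), which rests partly on background readings.

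The posterior genes are Hoxb9, which acts on the ribs and the thoracic skeleton, and Hoxb13, which acts in the tail and the prostate. Hoxb9 read 1.91, 1.97 and 3.54 in ΔC cells with poly(I:C) and 2.84, 2.71 and 2.90 without, against -6.42, -5.51 and -6.52 in wild-type cells with poly(I:C) and -6.11, -8.03 and -5.52 without. It was well above background on all 6 ΔC arrays and on 2 of 6 wild-type arrays. Its fitted log2 fold change was 8.63 ± 0.62 with poly(I:C) (limma adjusted p = 1.8e-05) and 9.37 ± 0.62 without (adjusted p = 8.45e-06). Both sizes rest partly on background readings in wild-type cells. With normexp background correction and quantile normalization they were 5.75 and 6.19.

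Hoxb13 read 3.71, 3.90 and 3.08 in ΔC cells with poly(I:C) and 4.67, 4.68 and 3.35 without. In wild-type cells it read -6.48, -6.26 and -6.39 with poly(I:C), none well above background, and -4.53, -4.52 and -6.37 without, where the first 2 were. Its processed intensity was 6860 to 24300 on the ΔC arrays and 7.49 to 32.8 on the wild-type arrays. Hoxb13 was at least 809-fold higher in ΔC cells with poly(I:C) (limma adjusted p = 2.51e-06), and its fitted log2 fold change without poly(I:C) was 9.37 ± 0.51 (adjusted p = 2.43e-06). In some groups the arrays numbered 3 stood apart at this end of the cluster. Among the 3 ΔC poly(I:C) arrays, number 3 had the highest Hoxb8 and Hoxb9 and the lowest Hoxb13. Among the untreated arrays number 3 had the lowest Hoxb13 in both genotypes, in wild-type cells as a reading not well above background. Number 3 lay between the other arrays for Hoxb8 and Hoxb13 in treated wild-type cells, and for Hoxb8 in untreated ΔC cells.

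The 9 genes ran from Hoxb2 to Hoxb13 at the far end of the cluster. Over both treatments, 5 of the 9 were well above background on all 6 ΔC arrays and on at most 2 wild-type arrays, a pattern that 1.64% of all tested genes showed. These 5 are the genes that entered the test only through the ΔC groups, so that the pattern partly restates the filter. The limit of 2 wild-type arrays was not planned beforehand. Another 3 of the 9, Hoxb3, Hoxb6 and Hoxb7, were well above background on all 12 arrays. Fitted log2 fold changes of 6 or more, a size chosen after the values were seen, were called for 7 of the 9 genes with poly(I:C) and for 7 without. Over all tested genes such changes numbered 38 (0.246%) with poly(I:C) and 44 (0.285%) without, and sizes this large often rest on background readings in 1 genotype. With normexp background correction and quantile normalization, only Hoxb13 (6.92) reached this size with poly(I:C). Without poly(I:C) only Hoxb9 (6.19) and Hoxb13 (7.32) did, and the share over all genes was not counted at that setting.

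**Figure D2:**
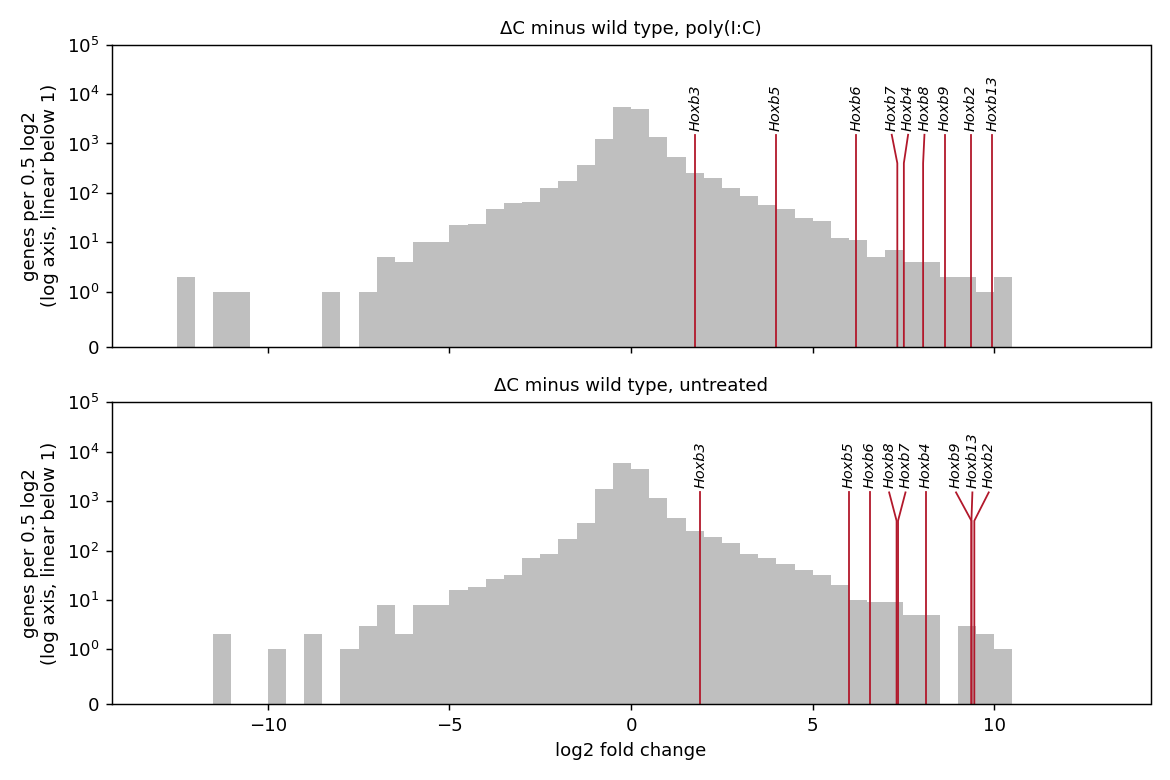
Number of tested genes (vertical axis, log scale, linear below 1) by log2 fold change of ΔC over wild-type cells (horizontal axis, bins of 0.5), with poly(I:C) above and untreated below. Red lines mark the 9 tested Hoxb genes at their fitted values, which run from 1.77 (Hoxb3) to 9.94 (Hoxb13) with poly(I:C) and from 1.91 (Hoxb3) to 9.45 (Hoxb2) without.

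The protein-coding genes next to the cluster had far smaller differences between genotypes. Of 19 such neighbours on the 2 sides, 17 were tested. Their log2 fold changes ran from -1.30 (Abi3) to 0.22 (Cdk5rap3) with poly(I:C), with a median of -0.18, and from -0.88 (Abi3) to 0.65 (Ttll6) without, with a median of -0.16. With poly(I:C), 0 were called higher and 1 lower, Snx11 (-0.51 ± 0.13, limma adjusted p = 0.023). Without poly(I:C), 0 were called higher and 2 lower, Snf8 and Ube2z, at -0.43 ± 0.13 each (adjusted p = 0.0365 and 0.0377). Over all tested genes, 9.04% were called lower with poly(I:C) and 10.2% without. With arrays scaled to their medians, the values were -0.65 for Snx11 and -0.36 for both Snf8 and Ube2z, and none of the 3 passed (adjusted p = 0.0763, 0.385 and 0.387). Ttll6, a tubulin-modifying enzyme gene next to Hoxb13, had log2 fold changes of -0.18 (adjusted p = 0.741) with poly(I:C) and 0.65 (adjusted p = 0.184) without. Skap1, a T-cell adaptor gene next to Hoxb1, had -0.46 (adjusted p = 0.297) and -0.40 (adjusted p = 0.351).

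**Figure D3:**
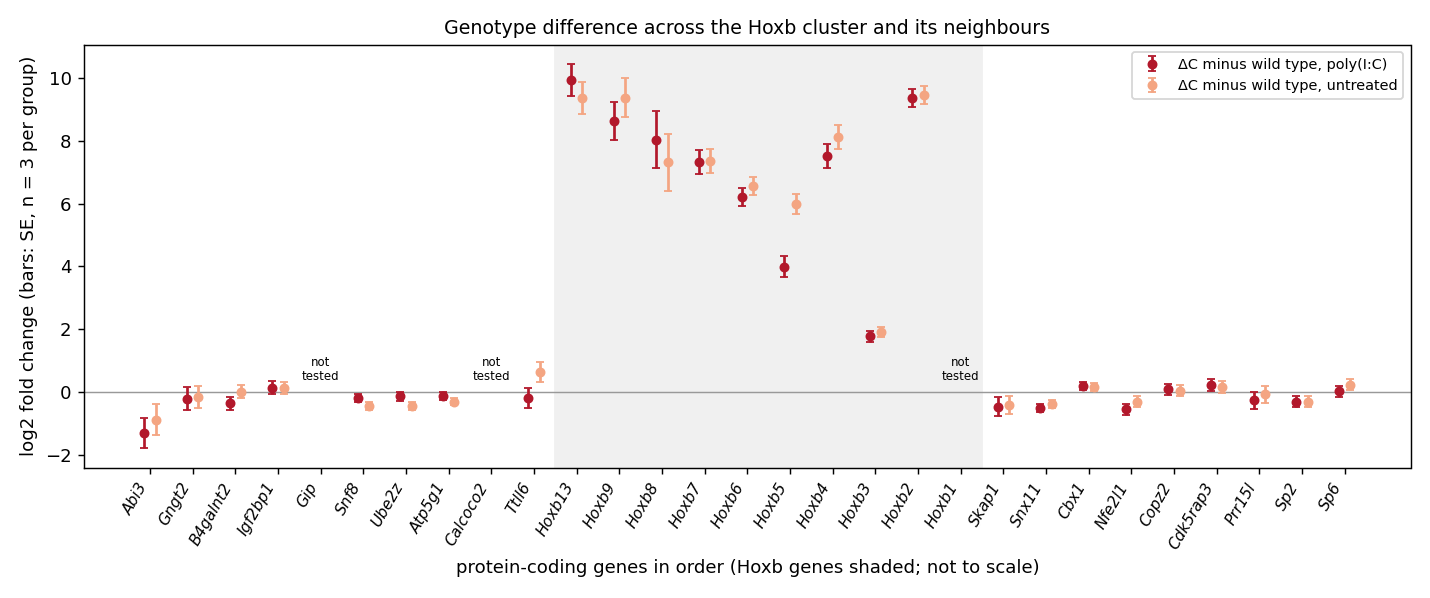
Log2 fold change of ΔC over wild-type cells (vertical axis, bars are the SE of the model, n = 3 per group) for the Hoxb genes, shaded, and 19 protein-coding genes from both sides in their order on chromosome 11 (horizontal axis, not to scale). The shaded genes lie between 1.77 and 9.94, and the neighbours between -1.30 and 0.65. Fitted values are drawn also where wild-type arrays were not well above background.

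The reference table lists 9 non-coding genes between Hoxb13 and Hoxb1, and 1 of them, Gm53, had a named probe. Gm53 lacked a value on 1 ΔC poly(I:C) array and was not tested. It read -0.43 to -0.05 on the other 2 ΔC arrays with poly(I:C) and -0.55 to -0.19 on the 3 without, against -8.18 to -8.15 in wild-type cells with poly(I:C) and -8.23 to -8.00 without. It was well above background on 5 of 5 ΔC arrays and on 0 of 6 wild-type arrays.

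The genotype difference was also taken within slides and scan days. Arrays of both genotypes shared slide 1 with poly(I:C) (1 ΔC and 1 wild-type array), where all 9 log2 differences were positive, from 1.49 to 10.19. On slide 2 without poly(I:C) (1 and 1 array) they ran from 1.79 to 10.75. Within scan day 1 they ran from 1.56 to 10.08 with poly(I:C) (1 ΔC and 2 wild-type arrays) and from 1.73 to 10.81 without (2 ΔC and 1 wild-type array).

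Markers of other cell types were compared between the same groups. The summed linear level of the 12 fibroblast markers, in units of the array's 75th percentile, was 401 to 737 in ΔC cells with poly(I:C) and 403 to 745 without, against 879 to 1030 in wild-type cells with poly(I:C) and 1070 to 1240 without. In each treatment 0 of the 12 were called higher and 4 lower in ΔC cells, against the 9.04% with poly(I:C) and 10.2% without of all tested genes called lower. Col3a1, Vim and S100a4 were among these 4 in both treatments, with Twist1 in treated and Pdgfrb in untreated cells. The 5 epithelial markers summed to 1.31 to 3.01 and 1.54 to 3.61 in ΔC cells with and without poly(I:C), against 0.501 to 3.66 and 0.416 to 4.55 in wild-type cells. Epcam and Cdh1, which were well above background on no wild-type array, were called higher in ΔC cells in each treatment, and Krt8 was called lower without poly(I:C). The 5 endothelial markers summed to 12.4 to 17.9 over the ΔC arrays, against 15.1 to 22.1 over the wild-type arrays, with Cdh5, Tek and Emcn well above background on no array. The 4 macrophage markers with a probe summed to 1.69 to 2.96 in ΔC cells, against 3.2 to 7.49 in wild-type cells, with Lyz2 on no array and Csf1r called lower without poly(I:C) (-1.19, limma adjusted p = 0.00968). The 5 neural markers summed to 6.11 to 7.32 in ΔC and 5.63 to 10.9 in wild-type cells. The 5 skeletal muscle markers summed to at most 0.122 in any group, with Myog and Myf5 on no array. Des, the only one tested, was called higher in ΔC cells with poly(I:C) (adjusted p = 0.00576). The part of these markers in the Hoxb difference was not tested.

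The next question was whether Hoxb genes moved with poly(I:C). In ΔC cells 0 of the 9 tested genes were called, by limma at an adjusted p under 0.05 and also at an unadjusted p under 0.05, against 1.84% of all tested genes called in either direction. Their log2 fold changes ran from -0.67 (Hoxb13) to 0.41 (Hoxb4), with a median of 0.02, against -0.05 over all tested genes, and adjusted p-values were 0.678 to 0.997. None of the 9 had treated and untreated arrays that did not overlap, as 8.79% of all tested genes did with the treated arrays higher. For Hoxb5 the log2 fold change was 0.32 ± 0.33, with a 95% interval of -0.42 to 1.06. Within scan day 1 (1 treated array and 2 untreated) the 9 differences ran from -1.04 to 0.57. Without the arrays numbered 3, the fall of Hoxb13 passed (-0.87, limma adjusted p = 0.00876).

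In wild-type cells 1 of the 9 genes was called. Hoxb5 was 5-fold higher with poly(I:C) (log2 fold change 2.32 ± 0.33, 95% interval 1.58 to 3.06, limma adjusted p = 0.0023). Over all tested genes, 5.24% were called higher, and 6.77% in either direction. The 3 treated arrays lay above the 3 untreated arrays without overlap, as for 12% of all tested genes, and treated minus untreated arrays of the same number gave 1.26, 3.06 and 2.64. Within slide 2 (1 array of each) the difference was 3.06, and within scan day 1 (2 treated arrays and 1 untreated) it was 2.92. With the slide as a block the value was 2.64 and no longer passed (adjusted p = 0.0722). Since 2 of the 3 untreated readings were not well above background, the size rests partly on background. With levels raised to the detection floor the fold change was 1.51 (adjusted p = 0.000168), and with normexp background correction and quantile normalization it was 0.62 (adjusted p = 0.0185).

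The other 8 genes did not pass in wild-type cells. Hoxb4 was well above background on 1 of 3 treated and on 0 of 3 untreated arrays, and no fold is given (limma adjusted p = 0.13, unadjusted p = 0.024). It passed without the untreated wild-type array numbered 3 (adjusted p = 0.0336), but with levels raised to the detection floor its log2 fold change was 0.08 (adjusted p = 0.793). Hoxb13 was well above background on 0 of 3 treated and on 2 of 3 untreated arrays, a difference of at least 1.937-fold with the treated arrays lower, which did not pass (adjusted p = 0.156, unadjusted p = 0.0347). Without the untreated array numbered 3 it passed (adjusted p = 0.0174). Over the 9 genes the fitted median was 0.21, against -0.14 over all tested genes, and 0.08 against -0.15 with levels raised to the floor.

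The response of Hoxb5 in ΔC cells minus that in wild-type cells was -2.00 ± 0.47 on the log2 scale (unadjusted p = 0.00157), which did not pass over all genes (limma adjusted p = 0.368). It was -1.19 (adjusted p = 0.153) with levels raised to the detection floor and -0.32 (adjusted p = 0.999) with normexp background correction and quantile normalization. It passed without the untreated wild-type array numbered 1 (-2.49, adjusted p = 0.0164), and Hoxb13 passed, as higher, without the arrays numbered 3 (adjusted p = 0.0402). None of the 9 genes was called for this difference, 1 had an unadjusted p under 0.05, and 0.0194% of all tested genes were called. Both responses of Hoxb5 share their arrays with the genotype comparisons above. The smaller genotype difference with poly(I:C) (3.99) than without (5.99) is the same quantity seen the other way.

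**Figure D4:**
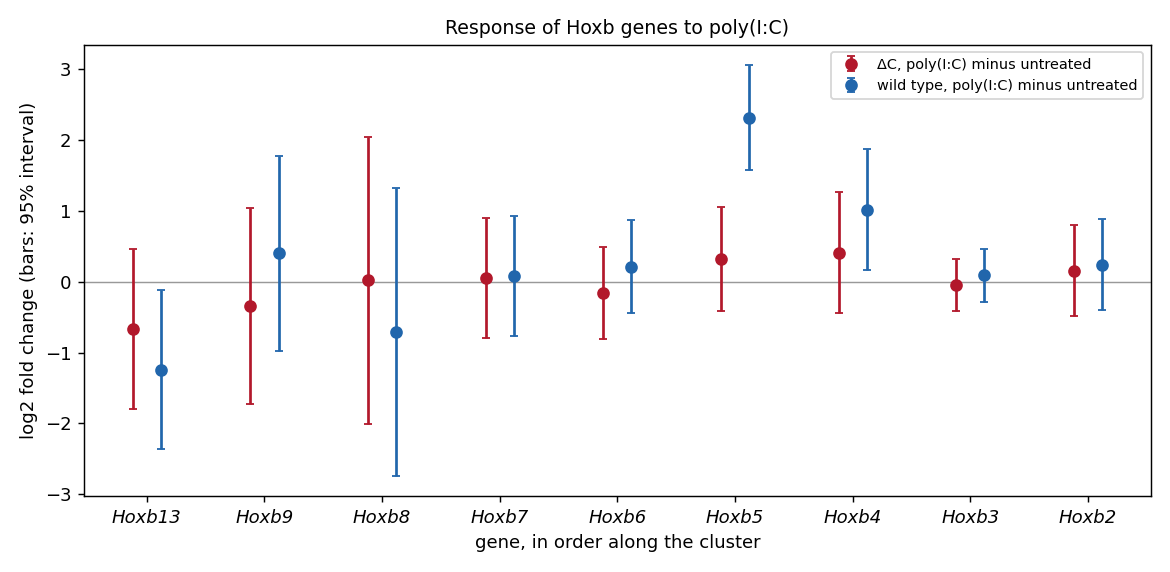
Log2 fold change of poly(I:C)-treated over untreated cells (vertical axis, bars are 95% intervals of the model, n = 3 per group) for the 9 tested Hoxb genes in order along the cluster (horizontal axis), in ΔC and wild-type cells. Hoxb5 in wild-type cells, at 2.32, is the only value called. Fitted values are drawn also where arrays were not well above background.

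The genes that work with Hoxb genes or control them were taken from fixed lists. Over all tested genes, 11.9% were called higher and 9.04% lower in ΔC cells with poly(I:C), and 10.9% and 10.2% without, which is the background for each count of these lists and of the other Hox genes. The 9 TALE cofactor genes, whose products bind DNA with HOX proteins, were all tested. In ΔC cells with poly(I:C), 3 were higher and 0 lower, and without it 2 were higher and 0 lower, with a median of 0.18 and 0.24. Of those called, Meis1 had the largest change, 2.18 ± 0.30 with poly(I:C) (limma adjusted p = 0.000917) and 1.96 ± 0.30 without (adjusted p = 0.00157). Meis2 followed at 1.41 and 1.33, and Pbx3 was called with poly(I:C) only, at 0.68 against 0.46 without (adjusted p = 0.0381 and 0.131). In response to poly(I:C), 0 of the 9 were called in ΔC cells and 1 in wild-type cells, Pbx4 (2.03 ± 0.40, adjusted p = 0.015), against 5.24% of all tested genes called higher.

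Of 19 genes that act upstream of Hoxb genes in the embryo, through retinoic acid, CDX proteins or Egr2, 16 were tested. In ΔC cells with poly(I:C), 1 was higher and 2 lower, and without it 1 was higher and 4 lower, so that the 2 lower of 16 with poly(I:C) were near the 9.04% of all tested genes. Crabp1, which binds retinoic acid in the cytoplasm, was higher by 6.73 ± 0.94 with poly(I:C) and 6.09 ± 0.94 without (limma adjusted p = 0.00102 and 0.00169). Crabp2, which carries retinoic acid to its receptors, was lower, at -3.05 ± 0.42 with poly(I:C) and -3.13 ± 0.42 without (adjusted p = 0.000966 and 0.000759). The receptor gene Rxra was lower in both treatments (-1.08 and -0.91), and Rara and Rarg were called lower without poly(I:C), at -0.44 and -0.91. The list held genes of opposite roles, and its median was -0.27 with poly(I:C) and -0.37 without, against 0.01 and -0.06 over all tested genes.

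With poly(I:C) 3 of these 16 genes rose and 0 fell in each genotype, where 1.82% of all tested genes were called higher in ΔC cells and 5.24% in wild-type cells. Cyp26a1, whose product breaks down retinoic acid, rose by 4.29 ± 0.70 in ΔC cells and by 4.46 ± 0.70 in wild-type cells (limma adjusted p = 0.0101 and 0.0039). Egr2, an activator of Hoxb2 in the hindbrain, rose by 3.10 ± 0.22 in ΔC and 3.30 ± 0.22 in wild-type cells (adjusted p = 7.66e-05 and 1.98e-05). Cyp26b1, a second retinoic acid hydroxylase gene, rose by 2.62 and 2.81. The responses of these 3 genes did not pass as different between genotypes (adjusted p of 0.987 to 0.999).

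Of 33 Polycomb and trithorax genes, which keep Hox genes off or on, 32 were tested. Among treated cells 7 were higher and 2 lower in ΔC cells, and without it 7 were higher and 2 lower, where 9.04% and 10.2% of all tested genes were called lower. The changes were small, from -0.61 ± 0.17 for Kdm6a, a demethylase gene that counters Polycomb (limma adjusted p = 0.0322), to 1.19 ± 0.17 for Cbx2, a Polycomb subunit gene (adjusted p = 0.00127), among those called with poly(I:C), and from -0.63 for Kdm6a to 0.90 for Pcgf6 without. With arrays scaled to their medians only 1 of these genes was called with poly(I:C) and 0 without. In response to poly(I:C), 0 were called in ΔC cells, and in wild-type cells 1 was called higher, Pcgf1 at 0.55, and 1 lower, Cbx2 at -0.81, against 1.53% of all tested genes called lower.

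The other Hox clusters differed among themselves in direction. In ΔC cells 8 of 9 Hoxc genes were higher in both treatments (median 7.37 with poly(I:C) and 7.96 without), while of 5 tested Hoxd genes 5 were lower with poly(I:C) and 4 without (median -6.87 and -7.10). With levels raised to the floor the medians were 5.90 and 5.93 for Hoxc and -5.90 and -5.48 for Hoxd. Of 11 Hoxa genes, 5 were higher and 2 lower with poly(I:C), and 4 were higher and 2 lower without.

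For each tested Hoxb gene, the 2 genes with the most similar levels over the 12 arrays were found among 13932 genes well above background on at least 9 arrays. Each tested Hoxb gene had all its ΔC arrays above all its wild-type arrays, so that this likeness includes the genotype difference. How much of the likeness is due to genotype was not measured, and it is given as a description. Hoxc6 was among the closest for Hoxb2 (Pearson r = 0.992), Hoxb3 (0.981), Hoxb7 (0.993) and Hoxb9 (0.986). Klhl7 came second for Hoxb2 (0.991) and Hoxb3 (0.98), and Fam71e1 for Hoxb9 (0.984). Slc16a6, a monocarboxylate transporter gene, was close to Hoxb7 (0.994) and Hoxb4 (0.99), and Etl4 was closest to Hoxb4 (0.994). Tuba8, an alpha-tubulin gene, and Arhgap8 were closest to Hoxb5 (0.985 and 0.982). Nup210, a nuclear pore gene, and Lsr were closest to Hoxb6 (0.994 each). Cdkn1c, the gene of the cell cycle inhibitor p57, and Fam149a were closest to Hoxb8 (0.976 and 0.973). Hddc3 and Snrpa1 were closest to Hoxb13 (0.997 and 0.992).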

How the data were processed

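Each group had 3 arrays of Cy3-labelled RNA. Per the file headers, the authors read the scans with Feature Extraction 10.7.3.1, and the deposited processed intensity of 62976 spots per array had the background subtracted and a spatial trend removed. Surrogates stood in for low values, and arrays were not normalized to each other. The deposited files also give the median intensity of spots and local background, and flags. A deposited table of log2 values by the authors, with the median (5.28) and the maximum (19.1) alike in every column, served as an alternative only, and its centring is unknown. The submitters' processing notes name limma without a version.

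On each array 3671 control spots and the spots marked as outliers (91 to 163) were not used. Saturated spots numbered 0. Spots of a probe were averaged on the log2 scale and the 75th percentile of each array was subtracted. A probe was well above background where the flag was set for a share of at least 0.5 of its spots. RefSeq accessions named 27235 of 55681 probes, and 107 probes lacked a value on some array. The brightest probe stood for its gene. The test was that of limma 3.58.1 (R 4.3.3), with 1 mean per group over 12 arrays (8 residual degrees of freedom, a prior of 2.19), two-sided, with Benjamini-Hochberg adjustment over 15445 genes and calls at an adjusted p under 0.05. Where no array of a group was well above background, a bound replaced a member's fold, and no fold is given where the bound was under 1. Such a bound holds for the processed intensities as scaled here, and other background corrections gave smaller folds. The p-value beside a bound is that of the fitted difference. Counts, medians, ranges and figures use fitted values. The code was checked on simulated data.

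The Hoxb members, the gene lists and the tests were chosen with earlier results of these data known. The text names every member, the 2 genes most like each and, per list and comparison, the genes that rose and fell most among those called. Further called genes of the TALE, upstream and neighbour lists, and Ttll6, Skap1 and Gm53, were added after their values were seen. Some genes of the lists are not reported here and stand outside the lists' counts. Genes of the other Hox clusters are named only for their likeness, since many of their sizes rest on background readings. Clones and predicted genes were left out of the search for similar genes. Between groups set against each other, the deviations of arrays that share a number correlated at 0.115 to 0.651. No such correlation was taken for arrays of unlike number, so whether the numbers pair the arrays was not tested. The main test did not pair them. Alternatives covered scaling, background correction, filters, probe choice, blocks for number, slide and scan day, array weights, the deposited table and each array left out. Arrays have no count depth, and their number limits the precision.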

Additional observations from a re-analysis of the deposited data

How the results depend on the processing

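The genotype difference of the Hoxb genes was recomputed under 29 alternatives. All 9 genes stayed called higher in ΔC cells in each of the 29 without poly(I:C). With poly(I:C) the count of called genes stayed within 1.5 times of 9. The exceptions were Hoxb3 (1.13, adjusted p = 0.208) and Hoxb5 (2.45, adjusted p = 0.231) in the authors' deposited table, which left 7 called. Without the column of that table that did not follow its own array, ΔC poly(I:C) replicate 1, all 9 were called, Hoxb5 passed in the wild-type response (adjusted p = 0.00522), and 14.4% of all genes were called with poly(I:C) in place of 3.6%. Of 522 such values, 0 reversed. Sizes moved more than calls. Without poly(I:C), Hoxb2 ran from 5.13 with normexp background correction and quantile normalization to 9.63 with slide as a block, and Hoxb3 from 1.46 with that correction to 4.78 with the mean of its probes. With the replicate block, which pairs arrays of the same number, 9, 9, 0, 1 and 0 genes were called in the genotype comparisons with and without poly(I:C), the ΔC response, the wild-type response and the difference, so that no call changed. The wild-type response, 1 gene as reported, gave 2 with quantile normalization, 3 with array weights, 3 without the arrays numbered 3, 0 with slide as a block, 0 in the authors' deposited table (Hoxb5 2.49, adjusted p = 0.318) and 1 to 3 with each array left out in turn. The ΔC response gave 1 gene without the arrays numbered 3, Hoxb13 (-0.87, adjusted p = 0.00876), and 0 to 0 with each array left out. The difference gave 0 to 1 with each array left out and 1, Hoxb13, without the arrays numbered 3. Apart from that column of the deposited table, the cause of these changes was not tested. Uncalled responses changed sign in 22 of 261 values in ΔC cells, 12 of 261 in wild-type cells and 24 of 252 for the difference. The share of all genes called in either direction ran from 3.6 to 44.9% (20.9% as reported) between genotypes with poly(I:C), from 5.98 to 48% (21.2%) without, from 0 to 17.3% (1.84%) in the ΔC response, from 1.5 to 43.7% (6.77%) in the wild-type response and from 0 to 4.49% (0.0194%) for the difference, with the highest values from array weights. Median scaling gave 999 genes higher and 1179 lower with poly(I:C), against 1837 and 1396 as reported, and 1264 and 696 without, against 1686 and 1581, and it put the median of all genes with poly(I:C) at -0.14 in place of 0.01. Signals near background set only bounds on wild-type levels, and groups of 3 arrays leave wide intervals for Hoxb8, whose SE was 0.91.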

Other observations

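In the authors' deposited table, 11 of the 12 columns followed the ranks of their own array (rank correlation of 1). The column labelled ΔC poly(I:C), replicate 1, had a rank correlation of 0.91 with its own array and of 0.949 with the untreated wild-type array numbered 1. In that column of the authors' deposited table, 9 of the 9 tested Hoxb genes lay below all 5 other ΔC columns, and 2 of them, Hoxb3 and Hoxb5, lay within the wild-type range. In the authors' deposited table Hoxb2 was at 5.40 in that column, against 11.10 to 11.59 in the other ΔC columns and 1.56 to 2.99 in the wild-type columns. Hoxb9 was at 6.36 there in the authors' deposited table, against 11.53 to 13.17 and 1.56 to 4.16. Hoxb13 was at 9.31 in the authors' deposited table, against 12.70 to 14.30 and 2.88 to 5.08. Ppp1r15a was at 11.80 in that column of the authors' deposited table, against 1.63 to 3.44 in the other ΔC columns and 12.11 to 15.38 in the wild-type columns. The scanner file of the same array gave Hoxb2 at 1.53 and Ppp1r15a at -4.12 as normalised log2 levels, both nearer the other ΔC arrays than the wild-type arrays. That Ppp1r15a reading was nevertheless the highest of the ΔC arrays and the only one of them well above background.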
